A study of Mus musculus with 9 samples.

Results

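The cytosolic ribosomal protein genes encode the protein part of the ribosome that translates nuclear-encoded mRNA. They were taken as the protein-coding rows of the count table named Rpl or Rps with a number, together with Rplp0, Rplp1, Rplp2 and Rpsa. Kinases of the Rps6k family and pseudogenes were left out. This gave 87 of 55401 genes. Of these, 77 are core subunits (31 of the small and 46 of the large subunit), and 10 are paralogs or genes with a like name. One of the 10, Rps19bp1, encodes a protein that binds RPS19 and is not itself a ribosomal protein. The filter on low counts kept 84 members, with all 77 core subunits among them. The 3 others were Rpl10l, which had 0 counts in all 9 libraries, Rpl39l with 56 counts and Rps23rg1 with 20 counts over the 9 libraries.

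Poly(A) RNA was sequenced from neonatal mouse ventricular myocytes (NMVMs), the primary muscle cells of the ventricle, isolated from wild-type C57BL/6J pups at 1 day of age. Of the 9 cultures, 3 were controls in normal oxygen with complete DMEM and serum. A further 3 were kept for 6 h in a sealed AnaeroPack chamber, which consumes oxygen, in DMEM lacking glucose and serum (hypoxia). The remaining 3 had the same chamber, medium and time with recombinant serglycin, a secreted proteoglycan core protein, added (hypoxia + rSRGN). Against control, low oxygen and the absence of glucose and serum cannot be told apart. Nothing in the labels says that the 3 cultures of a group came from separate isolations, so p-values measure the spread between these samples, which may be technical.

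Each cytosolic ribosome contains 1 copy of nearly every core protein, with the acidic stalk proteins present in several copies. The mRNAs of these proteins are abundant and begin with a 5′ terminal oligopyrimidine (TOP) tract, a C followed by a run of pyrimidines. Through this tract mTORC1 and the RNA-binding protein LARP1 control their translation and their storage. A few mammalian subunits have a paralog of tissue-limited use, and Rpl3l, which replaces Rpl3 in striated muscle ribosomes, is the one known for the heart.

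The 30 bases around the annotated start show where this tract lies. The windows are from RefSeq on GRCm38.p6, with 10 bases before the start and 20 from the start, 5′ to 3′ on the gene's strand. Capitals mark a C at the start with the unbroken pyrimidines that follow it. The first windows belong to members whose start holds the tract. Rps6 encodes the small subunit protein phosphorylated by S6 kinase, Rpl15 a large subunit core protein, Rps10 the member with the highest fold change in hypoxia and Rplp2 a stalk protein. Rps27 and the retrogene Rps27rt are shown because the bases after their starts are nearly alike.
Rps6 (chr4:86857348-86857377, minus strand): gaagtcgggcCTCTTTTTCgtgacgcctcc
Rpl15 (chr14:18270967-18270996, minus strand): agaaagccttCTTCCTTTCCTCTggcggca
Rps10 (chr17:27635225-27635254, minus strand): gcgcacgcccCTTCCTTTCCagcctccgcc
Rplp2 (chr7:141447641-141447670, plus strand): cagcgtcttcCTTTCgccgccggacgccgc
Rps27 (chr3:90213629-90213658, minus strand): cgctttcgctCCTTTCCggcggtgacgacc
Rps27rt (chr9:114982720-114982749, minus strand): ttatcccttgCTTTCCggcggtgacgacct

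The muscle paralog Rpl3l, and the pair Rpl22 and Rpl22l1 whose balance differed between the groups, had no such tract at an annotated start. For Rpl3l and Rpl22 the start nearest to the GENCODE gene start is shown.
Rpl3l (chr17:24727816-24727845, plus strand): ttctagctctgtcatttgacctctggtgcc
Rpl22 (chr4:152325716-152325745, plus strand): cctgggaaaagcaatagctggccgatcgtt
Rpl22l1 (chr3:28805498-28805527, plus strand): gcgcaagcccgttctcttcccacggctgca

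RefSeq starts were matched by symbol for 67 of the 87 members, with 79 starts in all. A C at the start followed by at least 4 pyrimidines was found at 14 of the 79 member starts (17.7%), and at 823 of 32851 starts of all genes (2.51%). Only a run that begins at the annotated base was counted, so that the pyrimidines from the next base on in the Rpl22l1 window were not. Core members with a matched start were grouped by such a run at an annotated base. In hypoxia against control the median log2 fold change was 1.41 for the 13 with it and 1.35 for the 44 without it. For hypoxia + rSRGN against hypoxia the medians were -0.259 and -0.256. The subsets therefore had nearly equal medians in both comparisons. The 44 may carry a tract at another base, since some annotated starts, such as that of Rpl18, lie far from the GENCODE gene start (2614 bases). These medians thus do not compare mRNAs that have a tract with mRNAs that lack it.

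Library totals were 21669017 to 22781557 counts in control, 16583985 to 18148474 in hypoxia and 16640239 to 20826701 in hypoxia + rSRGN. All 12 cardiomyocyte markers, such as the myosin heavy chain gene Myh6 and the troponin gene Tnnt2, were detected in every group. Their summed level was 39300 to 48600 CPM in control, 3560 to 5540 in hypoxia and 6940 to 7490 in hypoxia + rSRGN, and 12 of 12 fell in hypoxia, where 25.1% of all tested genes fell. The 8 fibroblast markers summed to 8660 to 10200, 17100 to 19900 and 18900 to 19500 CPM. The 6 endothelial markers summed to 65.1 to 91.1, 42.1 to 51.5 and 43 to 56.2 CPM and the 6 macrophage markers to 222 to 234, 24.4 to 27.7 and 28.4 to 34 CPM, with 5 of 6 in each list fallen in hypoxia. No marker of the 4 lists was at 0 over a whole group. Fewer cells of a type and less RNA per cell cannot be told apart in these bulk samples, and the part of these shifts in the results was not tested. The share of counts on mitochondrial rRNA also moved, from 0.195 to 0.239% in control to 2.31 to 2.61% in hypoxia and 2.27 to 2.67% with rSRGN, and its part was not tested either.

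One library stood apart in the ribosomal protein genes. In hypoxia replicate 2 the log2 levels of the core members spread around the other hypoxia replicates with an SD of 0.21, against 0.131 and 0.109 for hypoxia replicates 1 and 3. In the 6 libraries of the other groups this SD was 0.0563 to 0.0859. Of the 77 core members 57 were lowest in hypoxia replicate 2 among the hypoxia libraries and 15 were highest, with Rpl27, Rps7 and Rpl31 among the latter. Fold changes printed for single genes are therefore also given without it where their call at the adjusted p or 1.5-fold changed or their value moved by over 1.5 times.

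In hypoxia the ribosomal protein mRNAs took a larger share of the counts than in control. Members held 2.13, 2.07 and 2.08% of all counts in the control libraries, and 5.73, 5.22 and 5.98% in the hypoxia libraries. With rSRGN the shares were 4.63, 4.59 and 4.64%. All 3 groups were apart, with the hypoxia libraries highest and the rSRGN libraries between hypoxia and control. The mean share in hypoxia was 2.7 times that of control, and the mean share with rSRGN was 0.819 times that of hypoxia. Both subunits showed this. The small subunit went from 0.888% ± 0.0155 (SD, n = 3) to 2.48% ± 0.131 and then 2.00% ± 0.00577 with rSRGN, and the large subunit from 1.18% ± 0.0153 to 3.12% ± 0.257 and 2.59% ± 0.0231.

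**Figure D1:**
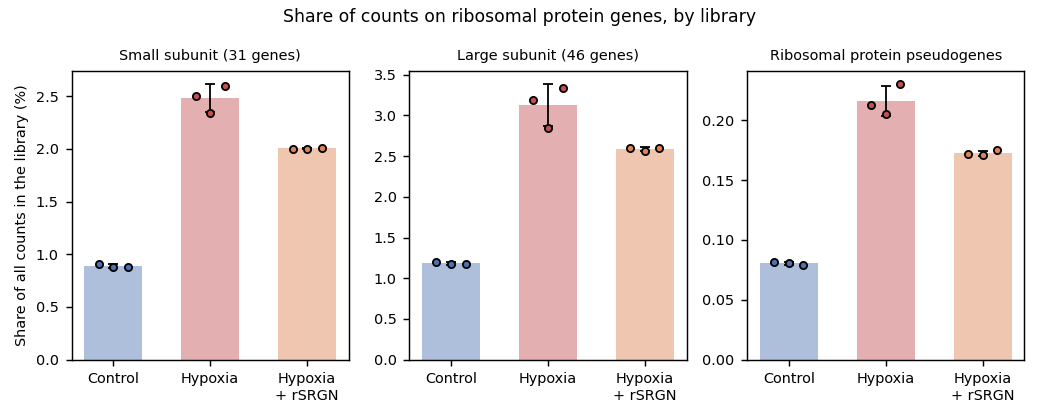
Share of each library's counts (%, y axis) on core small subunit genes, core large subunit genes and ribosomal protein pseudogenes, with points for the 3 libraries of a group, bars for their mean and error bars for the SD. In each panel the 3 hypoxia libraries lie above the 3 hypoxia + rSRGN libraries, which lie above the 3 controls.

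Processed pseudogenes of the family, which are named with -ps and are not members, moved alongside. Of 319 such rows, 207 had counts, and together they held 0.0794 to 0.0819% of counts in control, 0.205 to 0.23% in hypoxia and 0.171 to 0.175% with rSRGN. The ratio of hypoxia to control was 2.68 for the pseudogenes and 2.7 for the members. Near-identical copies share fragments with their parent genes: a median of 26.7% of the 75-base words of a member's transcripts also occurred in transcripts of other genes, and 20 of 87 members shared over 50%. The split between a member and its copies is therefore uncertain.

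In hypoxia nearly the whole family was higher than in control. Of 84 tested members 80 rose at least 1.5-fold at an adjusted p below 0.05 in edgeR's quasi-likelihood test, where 26.4% of the 16762 tested genes rose. One member fell, Rpl3l, where 25.1% of all genes fell. The median log2 fold change over the tested members was 1.33 (2.52-fold), beside 0.0537 over all genes tested. Of the members, 76 of 84 lay above a log2 fold change of 1, as did 17.9% of all genes. The control and hypoxia libraries did not overlap for 81 members that were higher in hypoxia, a pattern found in 37.7% of all genes.

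**Figure D2:**
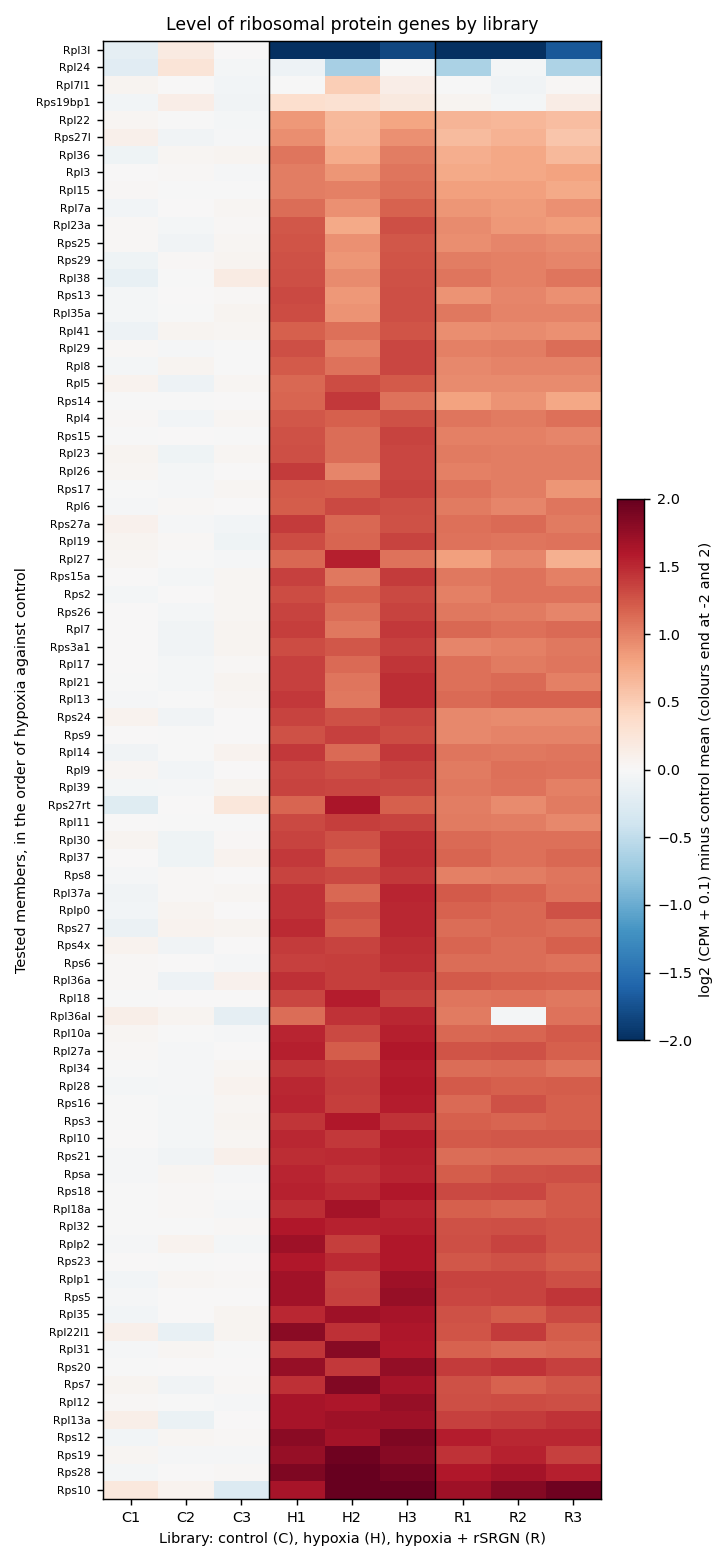
Level of 83 of the 84 tested members (rows, in the order of their fold change in hypoxia against control) in each of the 9 libraries (columns), as log2 CPM after TMM scaling minus the mean of the 3 controls. Nearly all rows are red in the hypoxia columns and paler red with rSRGN, while Rpl3l at the top is blue, and hypoxia replicate 2 differs from its neighbours in rows such as Rpl27 and Rps7.

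Among small subunit genes, 31 of 31 rose, with a median log2 fold change of 1.41 and a range of 1.15 to 1.98. Rps28, a small protein near the mRNA exit, was at 58.7, 60.4 and 60.9 CPM in control and at 220, 243 and 227 CPM in hypoxia. Its groups were far apart, with a log2 fold change of 1.94 ± 0.0717 (SE) and an adjusted p of 3.65e-16. Rps19, needed for maturation of the small subunit rRNA and mutated in Diamond-Blackfan anaemia, was at 189, 181 and 181 CPM in control and 615, 709 and 646 CPM in hypoxia. Its log2 fold change was 1.84 ± 0.0757 (adjusted p = 2.08e-15). Rps12 (chr10:23785183-23787275) went from 143, 154 and 151 CPM to 523, 474 and 544 CPM, a log2 fold change of 1.78 ± 0.0733. Rpsa, the small subunit protein also known as the laminin receptor, was among the most abundant members, with 728, 760 and 731 CPM in control and 2130, 2020 and 2130 CPM in hypoxia. Its log2 fold change of 1.5 ± 0.0709 was close to the median of its subunit.

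The highest fold change of the family belonged to Rps10, a protein of the small subunit head, at 2.79, 2.53 and 1.98 CPM in control and 7.74, 10.3 and 10.9 CPM in hypoxia. The log2 fold change was 1.98 ± 0.188 with an adjusted p of 3.5e-09. This gene was counted at a low level: at 1.05 CPM per kilobase of annotated exon in control it was the second lowest core member. Of its exon bases 28.7% are shared with other annotated genes, and counting without the option for overlapping features leaves out fragments that lie on more than 1 gene. Its level is therefore uncertain.

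Of the 46 large subunit genes 45 rose, with a median log2 fold change of 1.33. Rpl13a, a surface protein that is released as a translation inhibitor in interferon-treated myeloid cells, was at 18.6, 15.6 and 17.3 CPM in control and 53.7, 55.6 and 55.7 CPM in hypoxia (log2 fold change 1.68 ± 0.0905, adjusted p = 2.22e-13), with 35.4% of its exon bases shared with other genes. Rpl12, a protein of the stalk base, went from 290, 286 and 283 CPM to 900, 880 and 958 CPM. Its log2 fold change was 1.67 ± 0.069 (adjusted p = 2.12e-15), and the groups were far apart.

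The stalk, which recruits and activates the translation factors that hydrolyse GTP, is formed by the products of Rplp0, Rplp1 and Rplp2. Rplp0 was at 956, 1040 and 1000 CPM in control and 2720, 2400 and 2840 CPM in hypoxia, a log2 fold change of 1.41 ± 0.0794 (adjusted p = 4.79e-13). Rplp1 was at 403, 427 and 422 CPM in control and 1330, 1060 and 1350 CPM in hypoxia, and its log2 fold change was 1.58 ± 0.0845. Rplp2 was at 142, 151 and 140 CPM in control and 468, 375 and 439 CPM in hypoxia, a log2 fold change of 1.56 ± 0.0801. The stalk genes thus rose by similar amounts, with hypoxia replicate 2 the lowest of the hypoxia libraries for each of them.

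At the low end of the core, Rpl22, a large subunit protein that also binds mRNA and represses its paralog, was at 153, 148 and 144 CPM in control and 270, 233 and 255 CPM in hypoxia. Its log2 fold change was 0.77 ± 0.0713 (adjusted p = 2.55e-09), the smallest of the core members that rose. Rpl24, a protein of the bridge between the subunits, was the core member that did not pass. It was at 0.584, 0.858 and 0.676 CPM in control and 0.645, 0.404 and 0.695 CPM in hypoxia, with a log2 fold change of -0.28 ± 0.474 and an adjusted p of 0.616. Without hypoxia replicate 2 it was -0.079. The groups overlapped, and the level was the lowest of the core members, next to that of Rps10. Of its exon bases 47% are shared with the annotated gene Gm28037 and 80.9% of its 75-base words occur in other transcripts, so these counts hold only the part of its fragments that could be assigned.

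The order of the members by level was similar in the 3 groups. Per kilobase of annotated exon, the highest core members in control were Rplp1 at 836, Rps3a1 at 638 and Rplp0 at 603 CPM, and in hypoxia they stood at 2500, 1580 and 1600 CPM per kilobase. Spearman's rho over the 77 core members was 0.979 between the means of control and hypoxia, 0.985 between control and hypoxia + rSRGN and 0.995 between the hypoxic groups. These are descriptions across genes of the same libraries, which share base composition and gene length, and genes are not independent replicates.

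The genes with a paralog had a wider range of values. Rpl3l (chr17:24727820-24736143, plus strand), the paralog of striated muscle, was at 3.82, 4.92 and 4.35 CPM in control and at 0.322, 0.462 and 1.16 CPM in hypoxia. It was at 0.417, 0.964 and 1.27 CPM with rSRGN. Every control library was above every hypoxic one, and the log2 fold change of hypoxia against control was -2.75 ± 0.394 (adjusted p = 1.99e-06). Its ubiquitous partner Rpl3, a protein close to the peptidyl transferase centre, went the other way, from 554, 563 and 543 CPM to 1120, 1020 and 1160 CPM (log2 fold change 0.99 ± 0.071). Per kilobase Rpl3l stood at 1.34, 1.7 and 1.56% of Rpl3 in control, at 0.0603, 0.0928 and 0.198% in hypoxia and at 0.0922, 0.201 and 0.258% with rSRGN. The log2 ratio differed by -3.88 between hypoxia and control with no overlap. In the same comparison the cardiomyocyte markers had a median of -3.7 on the log2 scale, and the part of that shift in the fall of Rpl3l was not tested.

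Rpl22l1, the paralog of Rpl22, had a larger fold change than its partner. It was at 53.8, 45.1 and 52.3 CPM in control, 175, 139 and 154 CPM in hypoxia and 120, 132 and 117 CPM with rSRGN, with a log2 fold change of 1.63 ± 0.0903 in hypoxia against control (adjusted p = 3.58e-13). Per kilobase it stood at 51.3, 44.6 and 53.2% of Rpl22 in control, at 94.7, 87.1 and 88.3% in hypoxia and at 74, 82.5 and 75.3% with rSRGN. The 3 groups did not overlap, and the log2 ratio differed by 0.86 between hypoxia and control and by -0.221 between hypoxia + rSRGN and hypoxia.

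Rps27l, a paralog of Rps27 that p53 induces, had a smaller fold change than its partner. It was at 73.9, 66 and 67.7 CPM in control and 132, 110 and 130 CPM in hypoxia (log2 fold change 0.84 ± 0.0806, adjusted p = 4.1e-09), while Rps27 was at 78.9, 89.2 and 88.4 CPM and then at 241, 199 and 242 CPM (1.41 ± 0.0815). The log2 ratio of Rps27l to Rps27 differed by -0.568 between hypoxia and control, again with no overlap. Of 5 pairs compared in 15 tests, no ratio passed the exact two-sided permutation test: with 3 libraries against 3 its smallest p is 0.1, and the smallest adjusted p was 0.167.

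**Figure D3:**
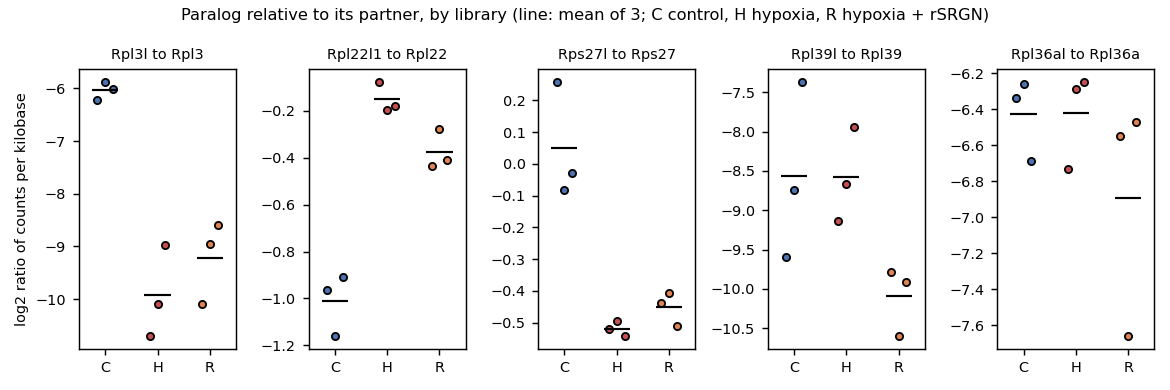
Log2 ratio of a paralog's counts per kilobase to those of its partner (y axis, a different range in each panel) in the control (C), hypoxia (H) and hypoxia + rSRGN (R) libraries, with a line at the mean of 3. Rpl3l and Rps27l are lower relative to their partner in both hypoxic groups, Rpl22l1 is higher, and the Rpl36al points of control and hypoxia overlap.

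The remaining genes of this kind differed in level and in fold change. Rpl36al, a paralog of Rpl36a, was at 1.08, 1.04 and 0.87 CPM in control and 2.26, 2.89 and 3.01 CPM in hypoxia, a log2 fold change of 1.44 ± 0.342 (adjusted p = 0.000765). Its ratio to Rpl36a differed by 0.0071 on the log2 scale, and the groups overlapped. Rps27rt, an intronless copy of Rps27, was at 7.91, 9.39 and 11 CPM in control and 21.1, 29.3 and 21.5 CPM in hypoxia (1.34 ± 0.137), and 90.3% of its 75-base words occur in other genes. Rpl7l1, a nucleolar relative of Rpl7, had a log2 fold change of 0.22 ± 0.0966 (adjusted p = 0.0468), which was 0.06 (0.498) without hypoxia replicate 2. Rps19bp1 was at 0.28 ± 0.109 (adjusted p = 0.027), at 0.26 (0.0562) without that library and at -0.103 with the length trend removed. Both were below 1.5-fold. Rpl37rt and Rps4l, listed as paralogs but not annotated as protein-coding, had log2 fold changes of 1.48 ± 0.0994 and 0.4 ± 0.0847, the latter -0.0339 with the length trend removed. For Rpl39l, with 2 to 15 counts per library, the log2 ratio to Rpl39 differed by -0.0134 between hypoxia and control and by -1.52 between hypoxia + rSRGN and hypoxia.

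**Figure D4:**
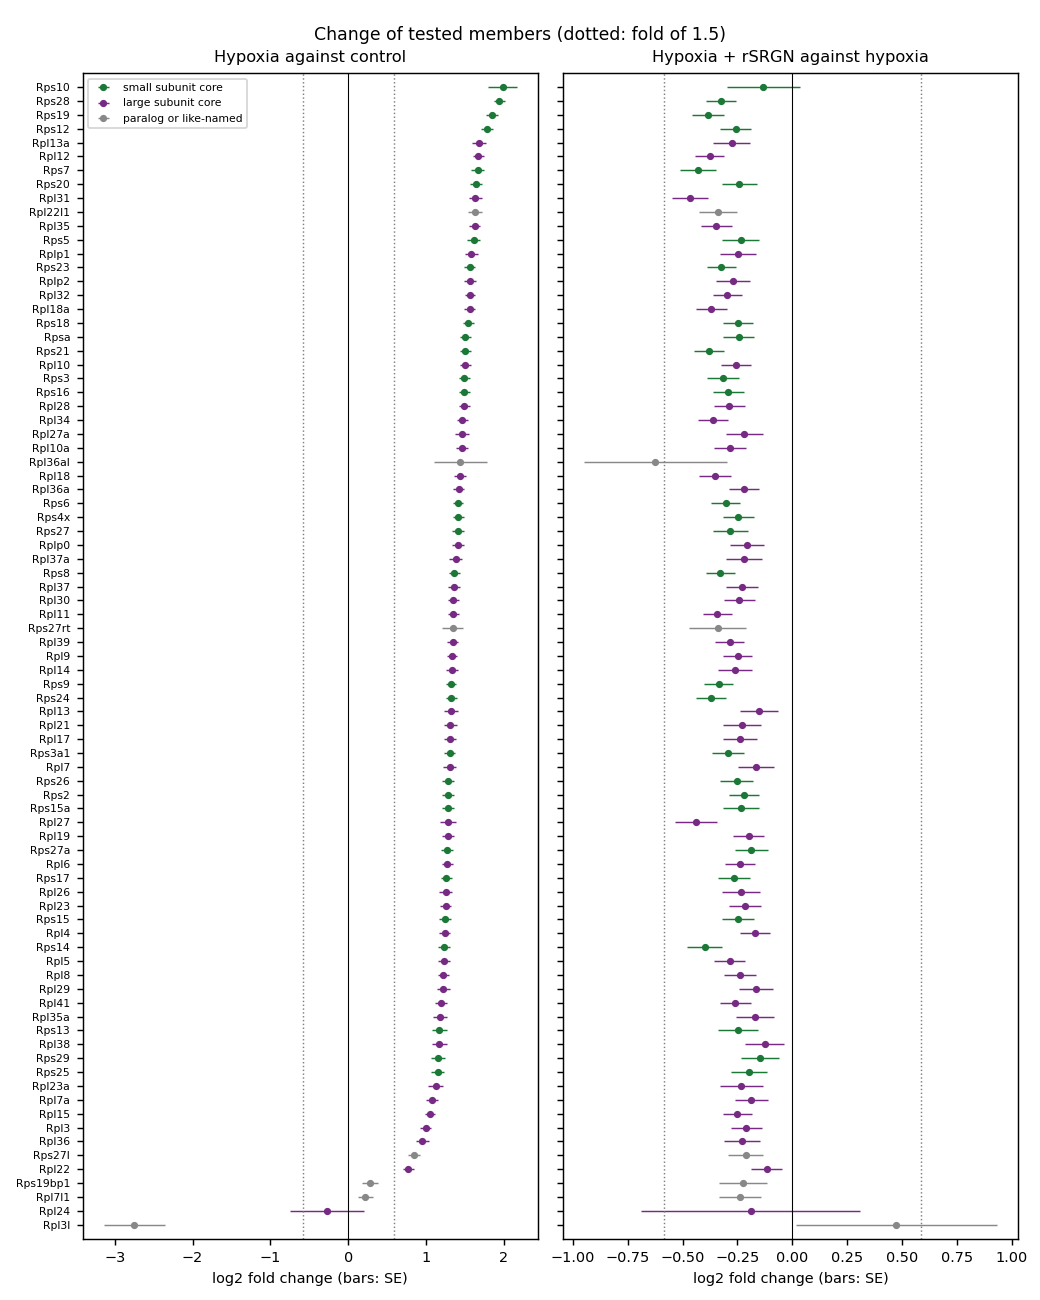
Log2 fold change (x axis, bars are SE) of 83 of the 84 tested members in hypoxia against control (left) and in hypoxia + rSRGN against hypoxia (right), in green for small subunit, purple for large subunit and grey for other members, with dotted lines at a fold of 1.5. On the left nearly all members lie beyond the right dotted line and Rpl3l far to the left, and on the right all but Rpl3l lie below 0, while 78 of 84 tested members did with the length trend removed.

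Addition of rSRGN during hypoxia was compared with hypoxia alone, which differs in the added protein as far as the labels say. No member was called at 1.5-fold by edgeR, where 3.13% of all genes were called, and DESeq2 also called 0. At the adjusted p alone 54 of 84 members were lower and 0 were higher, while 6.11% of all genes were lower and 10.5% higher by this rule. At an unadjusted p below 0.05, 73 members were lower and 0 higher, as were 13.5 and 15.9% of all genes. The median log2 fold change of the members was -0.248 (0.842-fold), beside -0.0289 for all genes, and 83 of 84 members were below 0. The libraries did not overlap for 58 members that were lower with rSRGN, as for 15.5% of all genes. By subunit, 24 of 31 small subunit genes and 29 of 46 large subunit genes were lower at the adjusted p alone, with medians of -0.266 and -0.239.

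These small differences depended on the processing and on single libraries. With a trend of the levels on gene length removed from each library, the median was -0.0988, 78 of 84 members were below 0 and 12 were lower at the adjusted p, where 3% of all genes were and the median of all genes was 0.0148. The median exon length was 1754.5 bases for tested members and 3961 for all tested genes. The count of members lower at the adjusted p was 76 without hypoxia replicate 2, 30 without hypoxia replicate 3, and 27, 25 and 30 without rSRGN replicates 1, 2 and 3. In the last 4 of these fits 3.55, 2.54, 1.99 and 3.52% of all genes were lower. Without hypoxia replicate 2 the core median was -0.305, 77 of 77 core members were below 0 and 74 were lower at the adjusted p, where 5.92% of all genes were.

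Of the members with the lowest fold changes, Rpl31, a large subunit protein at the exit tunnel, was at 594, 777 and 672 CPM in hypoxia and at 499, 484 and 494 CPM with rSRGN (log2 fold change -0.47 ± 0.0813, adjusted p = 0.0006). Rpl27 was at 375, 495 and 360 CPM and at 300, 331 and 277 CPM (-0.44 ± 0.0959, adjusted p = 0.00345). In both genes hypoxia replicate 2 was the highest library, and without it the log2 fold changes were -0.36 and -0.28. Rps7, which binds MDM2 when free of the ribosome, was at 585, 766 and 662 CPM and at 512, 482 and 501 CPM (-0.43 ± 0.0832, and -0.32 without that library). Rps14, a small subunit protein whose loss underlies the anaemia of the 5q- syndrome, had a log2 fold change of -0.4 ± 0.08 (adjusted p = 0.00179), and -0.29 without that library. The hypoxia and rSRGN libraries of these genes did not overlap. Rpl36al had the lowest value of all, -0.62 ± 0.327, but did not pass (adjusted p = 0.211), with 1 rSRGN library at 0.964 CPM and the others at 2.14 and 2.22 CPM.

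At the other end, Rpl3l was the only tested member above 0, at 0.48 ± 0.46 (adjusted p = 0.536), or 0.3 without hypoxia replicate 2. Rpl22, Rpl38, Rps10, Rps29 and Rpl13 followed at -0.12 to -0.15 and did not pass the adjusted p. With the length trend removed Rpl22, Rpl38, Rps10 and Rps29 lay above 0, at 0.01, 0.074, 0.0265 and 0.0527. Without hypoxia replicate 2 Rps10 was at -0.079. Hypoxia replicate 2 was the lowest hypoxia library for Rpl38, at 160, 126 and 158 CPM against 138, 132 and 137 CPM with rSRGN. It was also the lowest for Rps29 (242, 184 and 240 CPM) and Rpl13 (799, 619 and 828 CPM), and without it the log2 fold changes of these 3 genes were -0.23, -0.26 and -0.27, with adjusted p of 0.0363, 0.0052 and 0.00295. Of the stalk genes, Rplp0 was at -0.21 ± 0.0779 (adjusted p = 0.0753), or -0.27 (0.00474) without hypoxia replicate 2, Rplp1 at -0.25 ± 0.0824 (0.0432) and Rplp2 at -0.27 ± 0.0779 (0.021). Rpsa was at -0.25 ± 0.0693 (0.0184).

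The cardiomyocyte markers were higher with rSRGN than in hypoxia alone, with 10 of 12 called, where 2.27% of all genes were called higher, and a median of 0.78 on the log2 scale. The summed levels of the fibroblast markers overlapped between these groups. The part of this shift in the lower ribosomal protein levels was not tested.

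The rSRGN cultures were also compared with control, and this comparison shares the control libraries with the first and the rSRGN libraries with the second. Of 84 members 80 rose, where 24.1% of all genes rose, and 1 fell, where 24.7% fell. The median log2 fold change was 1.07 (2.1-fold), beside 1.33 in hypoxia alone. Rps28 was at 1.61 ± 0.0713, Rplp1 at 1.33 ± 0.084 and Rpl22 at 0.65 ± 0.0712, while Rpl3l was at -2.28 ± 0.372. Rpl7l1, Rps19bp1 and Rpl24 were not called, at -0.018 ± 0.0969, 0.053 ± 0.109 and -0.47 ± 0.478.

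Ribosomal proteins whose genes carry other names were also examined. Fau encodes RPS30 fused to a ubiquitin-like protein, and Rack1 encodes a scaffold on the small subunit head. Both rose in hypoxia. Fau was at 117, 127 and 122 CPM in control and 305, 363 and 329 CPM in hypoxia (1.45 ± 0.0757), and Rack1 rose by 1.58 ± 0.0803. With rSRGN the values against hypoxia were -0.38 ± 0.0739 for Fau (adjusted p = 0.00152) and -0.2 ± 0.0784 for Rack1 (0.088), the latter -0.28 (0.00416) without hypoxia replicate 2.

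Other RNAs known to carry a TOP tract mostly encode translation factors and related proteins. The list used also holds Gas5, which is not annotated as protein-coding and rose in hypoxia. Of the 20 genes of this list 15 rose in hypoxia and 0 fell at 1.5-fold (26.4 and 25.1% of all genes). The median was 0.99 on the log2 scale. The largest values were those of Eef1b2, an exchange factor of elongation factor 1 (1.59 ± 0.0758), Pabpc1, the cytoplasmic poly(A)-binding protein (1.54 ± 0.0902), and Npm1, the nucleolar chaperone nucleophosmin (1.39 ± 0.0708). At the other end were Naca, a chaperone subunit at the exit tunnel (-0.27 ± 0.0689), Eif3m (0.086 ± 0.0702, -0.147 with the length trend removed, 0.137 without hypoxia replicate 2) and Eif4b (0.24 ± 0.0729). With rSRGN 9 of the 20 were lower than in hypoxia at the adjusted p alone (6.11% of all genes) and 0 were called at 1.5-fold, with a median of -0.185, or -0.0995 with the length trend removed.

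Of the 14 regulators of TOP mRNAs and of mTOR signalling, 1 rose and 5 fell (26.4 and 25.1% of all genes), with a median log2 fold change of -0.323, or -0.0648 with the length trend removed. Myc, a transcription factor that drives ribosome production, was at 22.1, 22.7 and 22.1 CPM in control and 92.3, 144 and 103 CPM in hypoxia, a log2 fold change of 2.34 ± 0.126 (adjusted p = 2.01e-13). It was at 121, 119 and 147 CPM with rSRGN, which overlapped hypoxia through hypoxia replicate 2. Its log2 fold change with rSRGN against hypoxia was 0.19 (adjusted p = 0.279), or 0.4 (0.00154) without that library. Rheb, the GTPase that activates mTORC1, and the translation repressor Eif4ebp1 were at 0.55 ± 0.0771 and 0.4 ± 0.084, below 1.5-fold. Deptor, an mTOR inhibitor, fell by 1.66 ± 0.221 on the log2 scale, and was higher with rSRGN than in hypoxia by 0.78 ± 0.232 (adjusted p = 0.024), or by 0.62 (0.0723) without hypoxia replicate 2. Mtor itself was at 83, 102 and 98.2 CPM in control and 41.5, 42.8 and 35.2 CPM in hypoxia, and fell by 1.25 ± 0.0925. Ddit4, an mTORC1 inhibitor known as a hypoxia-induced gene, fell by 1.08 ± 0.0959, and with rSRGN its log2 fold change against hypoxia was -0.51 ± 0.1 (adjusted p = 0.00148), or -0.585 (0.000203) without hypoxia replicate 2.

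**Figure D5:**
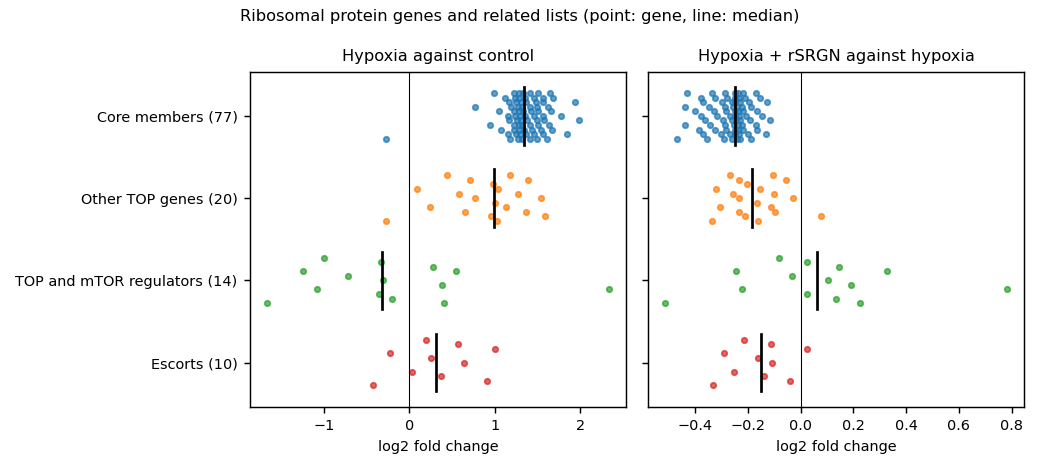
Log2 fold change (x axis) of each gene (points) and the median (line) for the 77 core members and for the lists of other TOP genes, TOP and mTOR regulators and escorts, in hypoxia against control (left) and hypoxia + rSRGN against hypoxia (right). On the left the core members and other TOP genes lie mostly to the right of 0 while the regulators spread to both sides, and on the right every core member lies below 0.

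The list of escorts is meant for proteins that accompany newly made ribosomal proteins to the nucleolus. This role was not checked for each gene, Zpr1 included. Of 11 names listed, 10 were in the count table, and all 10 were tested. In hypoxia 3 rose and 0 fell, with a median of 0.31, or 0.111 with the length trend removed. The number that rose was close to the 26.4% of all genes that rose. Nap1l1, a histone chaperone that is also in the TOP list, was at 1 ± 0.081, Zpr1 at 0.9 ± 0.102 and Tsr2, the escort of RPS26, at 0.64 ± 0.116, or 0.52 without hypoxia replicate 2. Grwd1, the escort of RPL3, was at -0.42 ± 0.11, Heatr3 at -0.22 ± 0.0908 (adjusted p = 0.0329, and 0.0883 without hypoxia replicate 2) and Rpf2 at 0.027 ± 0.116 (-0.26 with the length trend removed, -0.00773 without hypoxia replicate 2). Heatr3 carries RPL5 and Rpf2 brings the RPL5 and RPL11 complex into the large subunit precursor. None of the 3 passed 1.5-fold.

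The ribosomal proteins of mitochondria, encoded in the nucleus and named Mrpl or Mrps, had values mostly below 0. Of 78 such genes 77 were tested, and 4 rose and 20 fell in hypoxia with a median of -0.306 on the log2 scale. The number that fell was close to the 25.1% of all genes that fell, while 26.4% of all genes rose. With rSRGN 17 of them were lower than in hypoxia at the adjusted p alone (6.11% of all genes) and 0 were called at 1.5-fold, with a median of -0.177, or -0.035 with the length trend removed.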

How the data were processed

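The authors deposited whole-number counts per gene, not normalized, for 9 libraries in 3 groups. Per the file headers they came from featureCounts 2.0.1 on exons of GENCODE mouse release 25 (GRCm38), in paired mode with no strand, multi-mapping or overlap option, and the submitters' processing notes name HISAT2. Overlapping, antisense and near-identical genes are therefore uncertain. Groups were taken from the sample titles, and 0 columns were left unused.

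Counts were fitted in R 4.3.3 with edgeR 4.0.16 (filterByExpr, TMM, all 9 libraries, quasi-likelihood test, Benjamini-Hochberg adjustment over 16762 genes) and the step was tested on simulated data. Genes that rose or fell had an adjusted p under 0.05 with a 1.5-fold difference or more. CPM were TMM-scaled. Paralog ratios used a pseudocount of 0.5 and exact permutation tests. Sequences came from RefSeq (GRCm38.p6), shared words from GENCODE release 21 and exon overlaps from the exon coordinates of the count table (GENCODE release 25). Named were Rpsa, Rplp0 to Rplp2, the 6 highest and 6 lowest members of either hypoxia against control or rSRGN against hypoxia alone, the paralogs, Fau, Rack1 and the 3 highest and 3 lowest genes of each further list. The members and lists were chosen with earlier results of these data known. Alternatives were RLE scaling, library size alone, TMM without the members, other filters, DESeq2 1.42.0, no fold limit, only the groups compared, a replicate block, a length trend removed, core lists only, a pseudocount of 2 and each library left out. Fits without hypoxia replicate 2 were read in detail after the data were examined. Some genes that the naming rule covers are not reported here.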

Additional observations from a re-analysis of the deposited data

How the results depend on the processing

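For hypoxia against control the members called were 76 of 77 with the core lists only, and 77 to 83 under the other alternatives. The median log2 fold change of the members was 1.33, and 1.4 with library size alone, 1.27 with at least 1 count in all, 1.08 with the length trend removed and 1.3 to 1.38 with a library left out. For hypoxia + rSRGN against control the median of 1.07 became 1.12, 1.03 and 0.954 under the first 3 of these. For hypoxia + rSRGN against hypoxia 0 members were called under each alternative with the fold limit and 54 without it. The count at the adjusted p alone, 54, was 12 with the length trend removed and 25 to 76 with a library left out. The median of -0.248 was then -0.0988 and -0.3 to -0.219. The cause was not tested. The median over all genes in hypoxia against control was 0.122 with library size alone.

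Some values near 0 changed sign. For hypoxia against control these were the log2 ratios of Rpl39l to Rpl39 (-0.523 to 0.584 with a library left out) and of Rpl36al to Rpl36a (-0.0439 with a pseudocount of 2, -0.124 to 0.16 with a library left out), Eif3m (-0.147), Rpf2 (-0.26), Rps19bp1 (-0.103) and Rps4l (-0.0339) with the length trend removed, and Rpf2 with at least 1 count in all (-0.0273) or a library left out (-0.0405 to 0.0776). For hypoxia + rSRGN against hypoxia they were Eif3m (0.045), Rpf2 (0.0502), Rpl22 (0.01), Rpl38 (0.074), Rps10 (0.0265), Rps29 (0.0527) and Rps4l (0.00975) with the length trend removed, and, with a library left out, Heatr3 (-0.0207 to 0.0785), Pabpc1 (-0.183 to 0.0454) and Rheb (-0.0892 to 0.031).

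The replicate numbers did not pair the samples: same-numbered libraries deviated from their group means with correlations of -0.037 to 0.021. With the replicate block 81 members were called in hypoxia against control, and 50 were lower at the adjusted p in hypoxia + rSRGN against hypoxia. Leaving out a library leaves 2 in its group, and low counts limit Rpl39l, Rpl3l, Rpl36al and Rpl24.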
